A study of Mus musculus with 13 samples.

Results

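The complement and coagulation proteins of plasma that the liver makes were followed through their mRNAs in liver RNA of obese mice under canagliflozin or caloric restriction. The genes were taken from a list of 36, using every probe set that names only that gene, and 33 of the 36 had such a probe set, 1 each. They are 33 of 22180 genes with a probe set of their own and 33 of the 13308 that were tested after dim genes were left out. Masp2 and Klkb1 were dropped because their probe sets also name a neighbouring gene, and C3 was not analysed here. Of the 33, 15 belong to complement and 18 to coagulation and fibrinolysis.

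The data are 13 Affymetrix arrays of liver RNA from male C57Bl/6J mice, with log2 values from the robust multi-array average (RMA). A diet with 60% fat, begun at 6 weeks of age, made all of them obese within 4 weeks. Over the next 4 weeks 3 regimens were given. The first (HFD, 4 arrays) was the same diet alone, the second (CANA, 4 arrays) was that diet plus canagliflozin, 25 to 30 mg/kg, and the third (CR, 5 arrays) was a calorie cut of 15 to 30% that brought body weight down to that under the drug. Canagliflozin blocks SGLT2, a glucose transporter of the kidney tubule. All 3 groups thus share the diet, the strain and the sex, no lean group was examined, and the labels do not say whether each array holds a single animal, so p-values measure only the spread between these samples.

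Complement is a cascade of plasma proteases that marks microbes and dying cells. The classical and lectin branches start it through C1r, the mannose-binding lectins and the MASP proteases, which cut C4 and C2. Factor B carries the alternative branch, and C6, C8 and C9 build the pore of the membrane attack complex. Coagulation is a parallel cascade. Factor VII with tissue factor, or the contact factors through factors XI and IX, lead to factor X, factor V and prothrombin (F2), and thrombin turns the fibrinogen chains Fga, Fgb and Fgg into fibrin. Antithrombin, heparin cofactor II and the protein C and protein S pair hold thrombin back, and plasmin dissolves the clot. Hepatocytes make most of these proteins, and several of them rise in the acute phase response.

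The arrays had medians of 4.07 to 4.13 over all probe sets, and any pair correlated at 0.977 to 0.989 across the tested genes. The arrays' number limits the precision, and a level of one probe set cannot be set against that of another, so genes are compared only between groups. For each cell type the marker values were summed on the linear scale, and the log2 of that sum is called the summed log2 level. The brightest markers weigh most in it. For hepatocyte markers it was 15.94 to 16.04 in HFD, 16.01 to 16.10 in CANA and 16.00 to 16.11 in CR. Of these markers, 8 of 8 were above the dim limit. None of the 5 neutrophil markers was above it in the mean of all arrays.

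No complement or coagulation gene passed the test in any comparison, and most differences from HFD were small. In CANA against HFD, 0 of the 33 passed an adjusted p of 0.05 in limma, where 0.165% of all tested genes did. Their differences ran from -0.21 for C4bp to 0.50 for Pros1, with a median of -0.05 against -0.01 over all tested genes, and 12 of 33 lay above zero (36.4%, against 46.1% of all tested genes). The median size of the difference, without its sign, was 0.0846 for the members and 0.0951 for all tested genes. At an unadjusted limma p under 0.05 there were 2 of 33 members (6.06%), Pros1 higher and C4bp lower, against 8.82% of all tested genes. The arrays of both groups did not overlap for 2 of 33 members, Pros1 and Serpind1, against 4.9% of all tested genes. For 31 of the 33, the 95% interval of the difference lay within 0.5 log2 units, or 1.41-fold, on either side of zero, as it did for 81.1% of all tested genes. The exceptions were Pros1, with an interval of 0.21 to 0.78, and F11, with -0.54 to 0.22.

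In CR against HFD, 0 of 33 passed, where 0% of all tested genes did (limma adjusted p of at least 0.999 for each member). None reached an unadjusted p under 0.05, against 3.74% of all tested genes, and no member's arrays were free of overlap, against 1.17%. The differences ran from -0.30 for C9 to 0.15 for F7 with a median of -0.04, and 8 of 33 were above zero, against 46.4% of all tested genes. Intervals of 30 of the 33 lay within 0.5 log2 units of zero, as did those of 88.1% of all tested genes. The intervals of C6, C8a and C9 reached below.

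In CANA against CR, which sets the drug against weight matching, 0 of 33 passed, against 0.15% of all tested genes. The differences ran from -0.19 for Proc to 0.41 for Pros1 with a median of 0.01. Both of these genes, again 2 of 33 or 6.06%, had an unadjusted p under 0.05, against 8.43% of all tested genes. No member was free of overlap, against 2.93%. The comparisons with HFD share the 4 HFD arrays, so their values stand side by side below without a measure of their likeness.

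**Figure D1:**
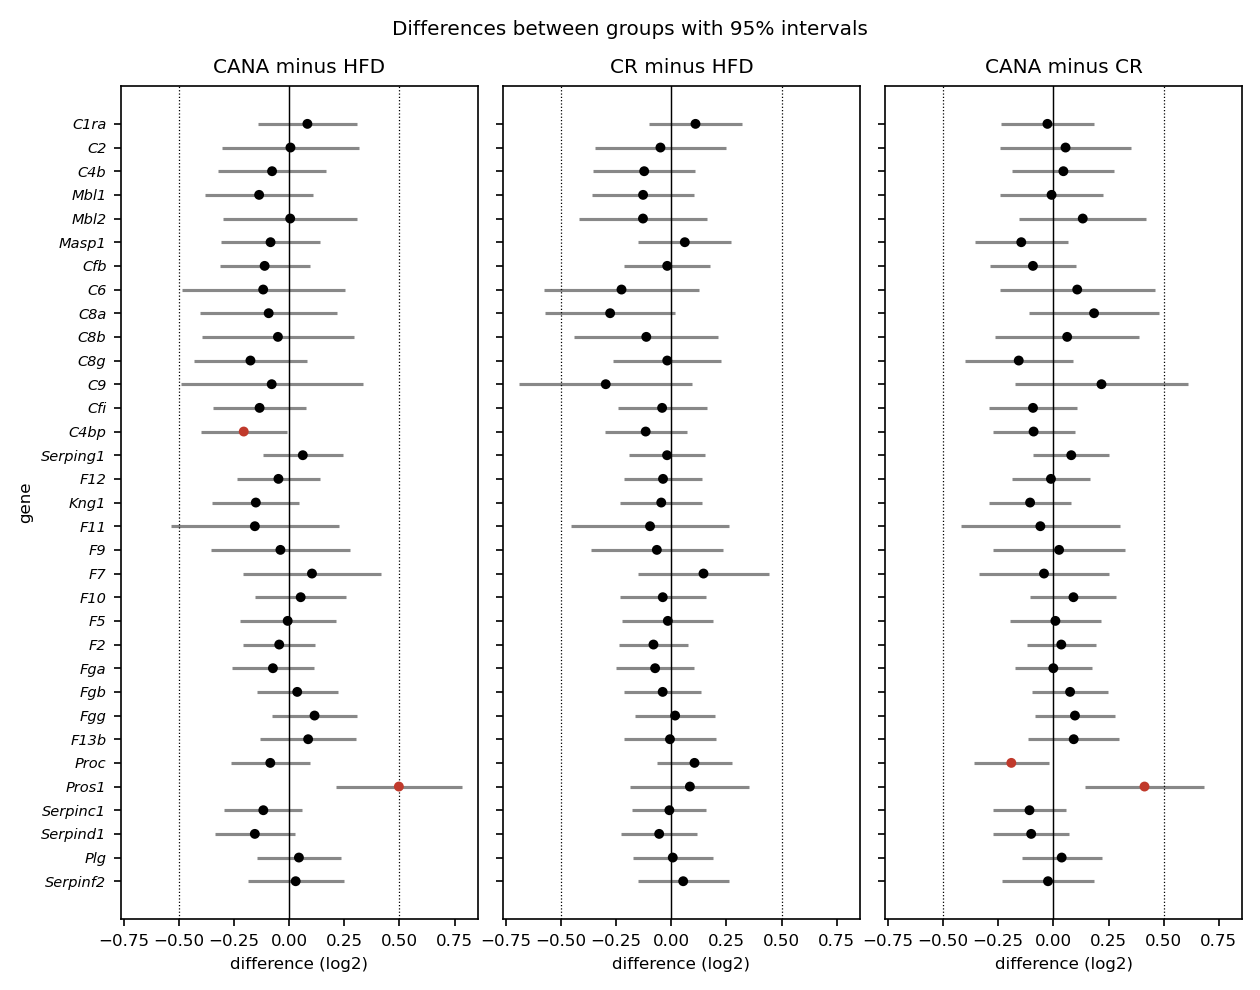
Differences between group means on the log2 scale (horizontal axis) for the 33 genes (vertical axis) in the 3 comparisons, with 95% limma intervals as grey lines. Dotted lines mark 0.5 log2 units, and red points mark an unadjusted p under 0.05: Pros1 and C4bp in CANA minus HFD, Pros1 and Proc in CANA minus CR.

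Pros1, the gene of protein S, showed the largest difference among these genes. Protein S is the cofactor of activated protein C in the cleavage of factors V and VIII, and a ligand of the TAM receptor kinases through which phagocytes take up dying cells. Its values were 7.95, 7.96, 7.67 and 7.80 in HFD replicates 1 to 4, and 8.06, 8.68, 8.49 and 8.13 in CANA replicates 1 to 4. Every CANA array lay above every HFD array, with CANA 2 and 3 well above CANA 1 and 4. In CR replicates 1 to 5 the values were 7.89, 7.91, 7.74, 8.15 and 7.96, and CR 4 reached into the CANA range. The HFD mean was 7.84 ± 0.14 (SD, n = 4), the CANA mean 8.34 ± 0.29 (n = 4) and the CR mean 7.93 ± 0.15 (n = 5).

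CANA minus HFD was 0.50 for Pros1, a 1.41-fold higher mean (SE 0.13, limma unadjusted p = 0.00194, adjusted p = 0.193). CANA minus CR was 0.41 (SE 0.13, unadjusted p = 0.00511, adjusted p = 0.316), and CR minus HFD 0.08 (SE 0.13, adjusted p = 0.999). None of the 3 passed the threshold. Without CANA 2, the highest array, the difference from HFD was 0.38. Within the arrays with serial numbers 1 to 8 in the labels it was 0.42, and within 9 to 14 it was 0.58. CANA minus CR was 0.30 without CANA 2, 0.53 within serial numbers 1 to 8 and 0.26 within 9 to 14. CR minus HFD was -0.11 and 0.32 within these sets. Protein S is made by endothelial cells and macrophages too, and bulk RNA cannot tell fewer cells of a type from less RNA per cell. The summed log2 level of 8 sinusoidal endothelial markers was 10.82 to 11.16 in HFD, 10.67 to 11.12 in CANA and 10.82 to 11.24 in CR, with CANA 2 the lowest at 10.67. That of 8 Kupffer and macrophage markers was 9.54 to 10.45, 9.86 to 10.35 and 9.29 to 10.29. All 16 were above the dim limit, both ranges overlapped between groups, and their part in the Pros1 values was not tested.

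The promoter of Pros1 is shown because no other gene of the group differed as much. The 250 bases before its RefSeq start in GRCm38.p6 (chr16:62854057-62854306, plus strand) read as follows, with the match to a STAT motif in capitals.
Pros1: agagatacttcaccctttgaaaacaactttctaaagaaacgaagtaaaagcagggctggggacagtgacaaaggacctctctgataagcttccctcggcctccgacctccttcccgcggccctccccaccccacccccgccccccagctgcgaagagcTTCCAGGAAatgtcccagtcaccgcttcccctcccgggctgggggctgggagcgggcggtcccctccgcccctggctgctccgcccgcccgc

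The other anticoagulant genes had lower means under canagliflozin, without passing. Proc, which encodes protein C, stood at 10.90, 10.86, 11.01 and 11.04 in HFD replicates 1 to 4 and at 10.75, 10.99, 10.88 and 10.86 in CANA replicates 1 to 4. CR replicates 1 to 5 were at 10.98, 11.08, 11.09, 11.09 and 11.05. CR 2 to 5 were the highest of all arrays, and CR 1 alone of its group lay below a CANA array, CANA 2. CANA minus CR was -0.19 (95% interval -0.36 to -0.02, limma unadjusted p = 0.0295, adjusted p = 0.544), CANA minus HFD -0.09 (-0.26 to 0.09) and CR minus HFD 0.11 (-0.06 to 0.27). Protein C and protein S act as a pair, and the differences of their genes between CANA and CR had opposite signs.

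Serpind1, the gene of heparin cofactor II, was at 11.54, 11.55, 11.51 and 11.42 in HFD replicates 1 to 4 and at 11.34, 11.37, 11.31 and 11.37 in CANA replicates 1 to 4. All CANA arrays lay below all HFD arrays, by a small margin. In CR replicates 1 to 5 it was at 11.57, 11.50, 11.45, 11.46 and 11.26, so that CR spanned both other groups. CANA minus HFD was -0.16 (SE 0.09, limma unadjusted p = 0.0869, adjusted p = 0.646). Serpinc1 encodes antithrombin. Its HFD mean was 12.17 ± 0.10 (SD, n = 4), its CANA mean 12.05 ± 0.09 (n = 4) and its CR mean 12.16 ± 0.04 (n = 5). The CANA minus HFD difference of -0.12 had an interval of -0.29 to 0.06.

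**Figure D2:**
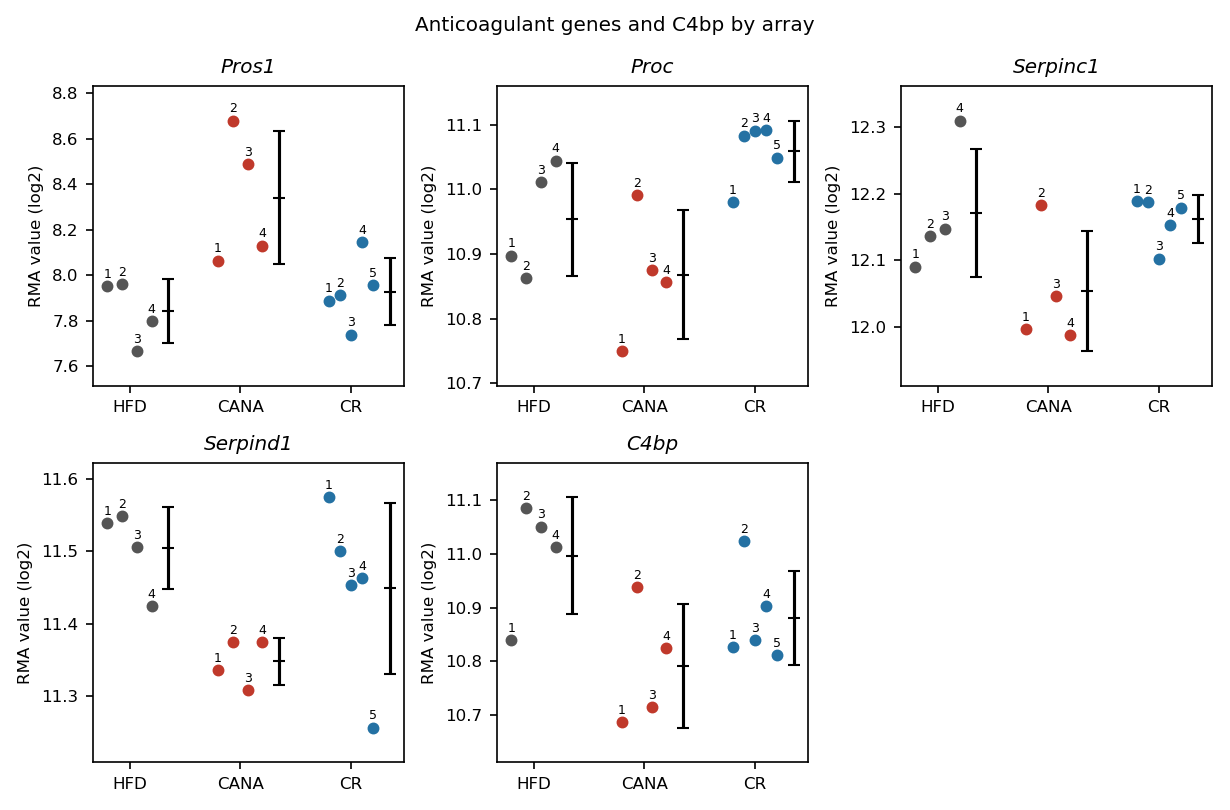
Log2 RMA values of Pros1, Proc, Serpinc1, Serpind1 and C4bp (vertical axes, a separate scale for each gene) in each array, numbered by replicate, with the group mean and SD in black. Pros1 in all 4 CANA arrays lies above the 4 HFD arrays, and Serpind1 in all 4 CANA arrays lies below them.

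Among the complement inhibitors, C4bp had the lowest CANA minus HFD difference of the 33 genes. It encodes the alpha chain of the C4b-binding protein, which in human plasma also binds protein S. The HFD arrays were at 10.84, 11.09, 11.05 and 11.01 and the CANA arrays at 10.69, 10.94, 10.71 and 10.82, replicates 1 to 4. HFD 1 lay within the CANA range and the other HFD arrays above it. The CR arrays, replicates 1 to 5, were at 10.83, 11.02, 10.84, 10.90 and 10.81, across both ranges. The difference was -0.21 for CANA minus HFD (interval -0.40 to -0.01, limma unadjusted p = 0.0401, adjusted p = 0.536) and -0.12 for CR minus HFD (interval -0.30 to 0.07). Cfi, the protease that degrades C4b and C3b, differed by -0.13 and -0.04 in the same comparisons, and Serping1, the C1 inhibitor, by 0.06 and -0.02. Of the Cfi and Serping1 values the smallest adjusted p was 0.773.

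C6, C8a, C8b and C9 of terminal complement were among the 6 genes with the widest spread within groups, and CR 1 and CR 5 were the lowest arrays for the first 3 of these. C6 was at 10.53, 10.13, 9.97 and 9.92 in HFD replicates 1 to 4, at 10.07, 9.95, 9.92 and 10.13 in CANA replicates 1 to 4, and at 9.45, 10.12, 10.34, 10.03 and 9.63 in CR replicates 1 to 5. CR 1 and CR 5 were the lowest of all 13 arrays, and HFD 1 was the highest. C8a, the alpha chain of C8, was at 11.12, 11.01, 10.88 and 11.17 in HFD, at 10.70, 11.18, 10.83 and 11.09 in CANA, and at 10.46, 11.00, 11.03, 10.87 and 10.47 in CR. CR 1 and CR 5 were again the lowest of the 13. C8b, the beta chain, was at 11.75, 11.64, 11.27 and 11.36 in HFD, at 11.55, 11.57, 11.20 and 11.50 in CANA, and at 11.12, 11.57, 11.80, 11.46 and 11.01 in CR. The same arrays were lowest for it. C6, C8a and C8b were the 3 of 33 genes with this pair of arrays at the bottom of all 13. The pair was the lowest within CR for 10 of 33, which also include F11, C2, Cfb, C4bp, F12, Proc and Plg. The same counts over all tested genes are not given here, so these counts cannot be read as particular to the 33.

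C9, which forms the ring of the pore, was at 11.45, 11.22, 10.81 and 10.82 in HFD, at 11.09, 11.24, 10.58 and 11.07 in CANA, and at 10.74, 10.96, 11.22, 10.71 and 10.27 in CR. CR 5 was the lowest array and HFD 1 the highest, and CR 1 lay above CR 4 and CANA 3. C8g, the gamma chain, which belongs to another protein family than the alpha and beta chains, ran otherwise. It was at 11.23 in CR 1, its highest array, and at 10.87 in CR 5, with 10.67 to 10.98 in the other CR arrays, 10.82 to 11.09 in HFD and 10.55 to 10.94 in CANA. F11, the zymogen of factor XI, was also low in CR 1 and CR 5, both at 8.97, against 9.45 to 9.64 in the other CR arrays. In CANA it ran from 8.91 to 9.76, and in HFD only from 9.34 to 9.49.

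In CR minus HFD, C9 differed by -0.30 (interval -0.69 to 0.09), C8a by -0.28 (-0.57 to 0.02), C6 by -0.23 (-0.58 to 0.12), C8b by -0.11 (-0.44 to 0.21) and C8g by -0.02 (-0.26 to 0.23). Each had a limma adjusted p of 0.999. Without CR 1 and CR 5, an alternative chosen after seeing the data, these became -0.11, -0.08, 0.02, 0.10 and -0.11, so that C6 and C8b changed sign. Single arrays also moved them: without HFD 1, C9 was at -0.17, C6 at -0.10 and C8b at -0.03, without CR 5 C9 was at -0.17 and C8b at -0.02, and without CR 1 C6 was at -0.11, C8b at -0.05 and C8g at -0.10. C8g turned above zero without CR 2, CR 3 or HFD 3. In CANA minus HFD all 5 terminal genes lay below zero, between -0.18 for C8g and -0.05 for C8b, with a smallest adjusted p of 0.751. That sign rested on single arrays for 3 of them: without HFD 1, C6 was at 0.01, C8b at 0.03 and C9 at 0.05, and without CANA 3, C8b was at 0.03 and C9 at 0.06. C8a was at -0.01 without CANA 1. In CANA minus CR, C9 was at 0.22, C8a at 0.18, C6 at 0.11, C8b at 0.06 and C8g at -0.16, with a smallest adjusted p of 0.752. Without CR 1 and CR 5 the values were 0.04, -0.02, -0.14, -0.16 and -0.06, so that C8a, C6 and C8b changed sign. Without CR 1 alone, C6 and C8b were each at -0.01, and without CR 5 alone C8b was at -0.03.

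Terminal complement is more abundant in male than in female mice. The mean deviation of C6, C8a, C8b and C9 from their gene means was -0.39 in CR 1 and -0.48 in CR 5, and -0.06 to 0.27 in the other CR arrays. It was -0.09 to 0.38 in HFD and -0.19 to 0.16 in CANA. A list of 8 genes that are higher in male mouse liver (Elovl3, Cyp2d9, Cyp7b1, Hsd3b5, Cyp4a12a, Slco1a1, Mup20 and Selenbp2), chosen after the values were seen, deviated by -0.46 and -0.41 in CR 1 and CR 5. It was at 0.12 to 0.28 in the other CR arrays, -0.04 to 0.10 in HFD and -0.24 to 0.19 in CANA. These are means over the list. Its genes are not given singly for CR 1 and CR 5, so the means do not show how many were low there. The listed genes did not all move alike between groups. The CR mean of Elovl3 was above HFD (10.64 against 9.83), and those of the other listed genes were below. In CANA, Elovl3 (11.03) and Cyp7b1 (10.94, against 10.78 in HFD) were above HFD and the others below. All 8 were tested, and CANA 3, the lowest CANA array for that list, was also the lowest of CANA for the terminal genes. Hepatocyte markers were at 16.05 in CR 1 and 16.06 in CR 5, inside the range of the other CR arrays. Kupffer and macrophage markers were at 9.93 in CR 1 and at 9.29 in CR 5, the lowest of all arrays. The part of these in the terminal complement values was not tested.

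**Figure D3:**
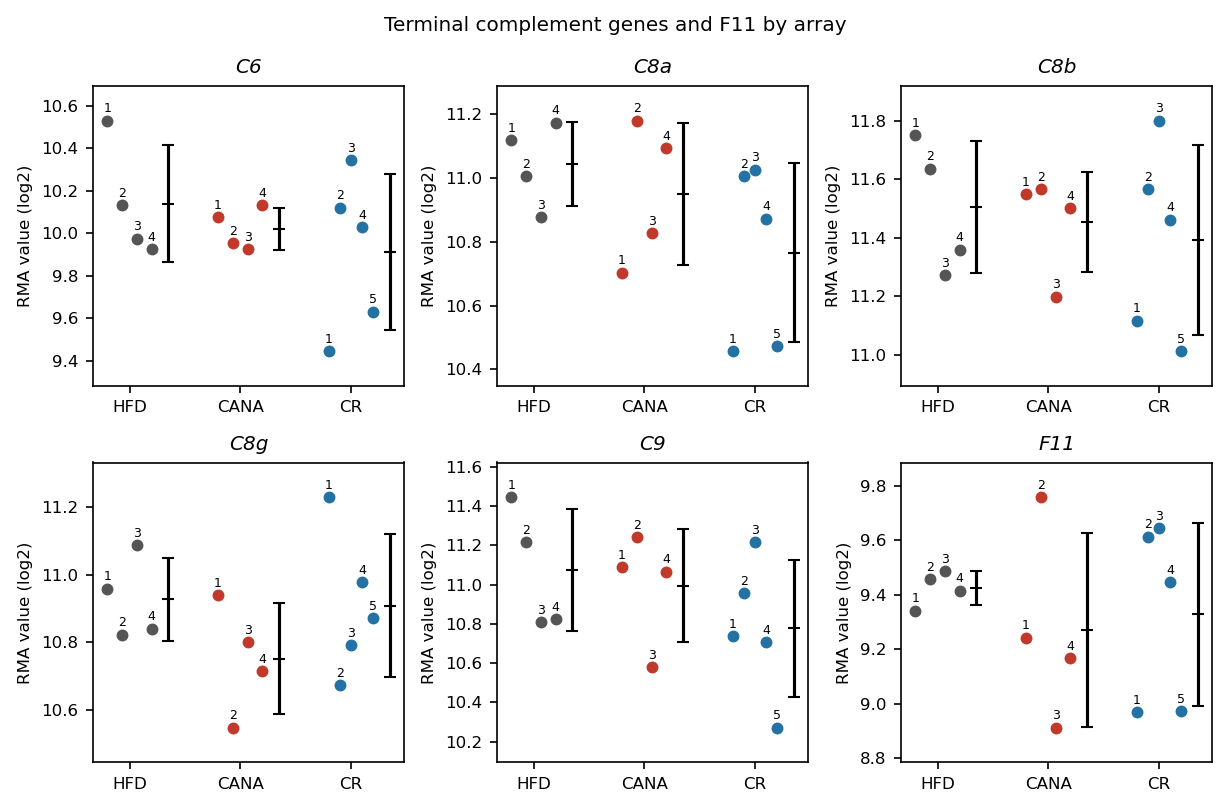
Log2 RMA values of C6, C8a, C8b, C8g, C9 and F11 (vertical axes, a separate scale for each gene) in each array, numbered by replicate, with the group mean and SD in black. CR 1 and CR 5 are the lowest of the 13 arrays for C6, C8a and C8b, while C8g is highest in CR 1.

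The promoters of C6, C8a, C8b and C9 are shown because all 4 genes lay below their gene means in CR 1 and CR 5 and above them in HFD 1. In other arrays C8a ran otherwise. It deviated by -0.21 in CANA 1, where the others were at 0.06 to 0.15, and by 0.27 in HFD 4, where they were at -0.11 to -0.09. They are the 250 bases before the RefSeq start in GRCm38.p6: C6 at chr15:4726960-4727209, plus strand; C8a at chr4:104876399-104876648, minus strand; C8b at chr4:104766067-104766316, plus strand; C9 at chr15:6445096-6445345, plus strand. The start used for C6 (4727210) and for C8a (104876398) lies inside the span of the gene. That span is 4727067 to 4804045 for C6 and 104815679 to 104876487 for C8a. The printed bases nearest these starts, with the C/EBP match of C6, are thus within the gene. Capitals mark a C/EBP match in C6, a STAT and an HNF1 match in C8a, an HNF1 match in C8b, and a C/EBP and a glucocorticoid receptor match in C9.
C6: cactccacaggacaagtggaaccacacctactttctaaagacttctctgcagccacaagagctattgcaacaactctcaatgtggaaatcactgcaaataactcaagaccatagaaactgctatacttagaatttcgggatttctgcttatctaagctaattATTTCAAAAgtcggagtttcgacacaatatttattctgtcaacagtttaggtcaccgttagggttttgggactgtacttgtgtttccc
C8a: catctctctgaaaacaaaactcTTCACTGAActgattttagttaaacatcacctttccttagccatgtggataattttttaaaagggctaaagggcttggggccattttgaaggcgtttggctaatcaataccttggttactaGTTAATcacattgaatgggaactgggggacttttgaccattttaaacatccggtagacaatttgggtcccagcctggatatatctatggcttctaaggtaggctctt
C8b: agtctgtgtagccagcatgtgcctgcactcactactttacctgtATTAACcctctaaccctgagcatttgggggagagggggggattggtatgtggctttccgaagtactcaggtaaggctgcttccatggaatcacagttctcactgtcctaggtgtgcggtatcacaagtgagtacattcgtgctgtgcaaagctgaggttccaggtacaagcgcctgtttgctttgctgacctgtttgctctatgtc
C9: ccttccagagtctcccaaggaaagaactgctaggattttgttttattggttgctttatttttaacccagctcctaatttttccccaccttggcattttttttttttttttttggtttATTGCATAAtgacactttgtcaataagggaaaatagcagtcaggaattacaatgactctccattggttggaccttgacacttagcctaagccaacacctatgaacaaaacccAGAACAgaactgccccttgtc

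The arrays of all groups overlapped for each of the genes that start complement. C1ra, a protease of C1, had a mean of 6.32 ± 0.13 in HFD (SD, n = 4), of 6.40 ± 0.06 in CANA (n = 4) and of 6.43 ± 0.18 in CR (n = 5). C4b differed by -0.08 in CANA minus HFD and by -0.12 in CR minus HFD, and C2 by 0.01 and -0.05. Mbl1 and Mbl2, the mannose-binding lectins, differed by -0.14 and 0.00 in CANA minus HFD and by -0.13 each in CR minus HFD. Mbl2 spread from 8.87 in CANA 1 to 9.65 in CANA 4, a wider range than in HFD, where it ran from 9.18 to 9.53. Masp1, a lectin pathway protease, was at -0.08 in CANA minus HFD and -0.15 in CANA minus CR (interval -0.36 to 0.07). Cfb, the protease of the alternative pathway and an acute phase protein, had a mean of 11.16 ± 0.15 in HFD, and the CANA and CR means were 11.04 ± 0.10 and 11.14 ± 0.10. Over all 3 comparisons the smallest adjusted p of these 7 genes was 0.733. C1ra, C4b and Kng1 have near-identical copies in the mouse genome (C1rb, C4a and Kng2) that can share probes, so their values are uncertain between the copies.

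Among the extrinsic and common pathway genes the smallest adjusted p was 0.841. F2, prothrombin, was at 12.02, 12.01, 11.93 and 12.05 in HFD replicates 1 to 4, at 12.02, 11.97, 11.92 and 11.91 in CANA replicates 1 to 4, and at 11.95, 11.83, 11.96, 11.93 and 11.94 in CR replicates 1 to 5. All 13 values fell within 0.22 log2 units. The differences were -0.05 (interval -0.21 to 0.12) in CANA minus HFD and -0.08 (-0.24 to 0.07) in CR minus HFD. F7, which starts the extrinsic pathway with tissue factor, was wider, from 9.45 to 10.09 in HFD, 9.65 to 10.27 in CANA and 9.74 to 10.05 in CR. F10 and F5, the protease and the cofactor of the prothrombinase, differed by 0.05 and -0.01 in CANA minus HFD and by -0.04 and -0.02 in CR minus HFD.

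The means of the 4 contact and intrinsic genes lay below HFD in both treatments, without passing, but the signs of F9 and F12 rested on single arrays. F12, factor XII, was at -0.05 and -0.04 in CANA minus HFD and CR minus HFD, Kng1, the kininogen, at -0.15 and -0.05, F11 at -0.16 and -0.10, and F9 at -0.04 and -0.07. The interval of Kng1 in CANA minus HFD was -0.35 to 0.05, and without CR 1 and CR 5 F11 was at 0.14 and F12 at 0.01 in CR minus HFD, both above zero. In CANA minus HFD, F11 was at -0.04 without CANA 3 and at 0.10 within serial numbers 1 to 8. Without HFD 1, F12 was at 0.01 in CANA minus HFD and at 0.02 in CR minus HFD. F9, the gene lost in haemophilia B, was at 9.78 in CANA 1 and at 10.43 to 10.51 in the other CANA arrays. Its CANA minus HFD difference was 0.13 without CANA 1 and 0.03 without HFD 4. Plg, plasminogen, and Serpinf2, the plasmin inhibitor, differed by 0.04 and 0.03 in CANA minus HFD and by 0.01 and 0.05 in CR minus HFD.

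The fibrinogen chains, whose genes lie side by side on chromosome 3, had some of the narrowest intervals of the set, all across zero. Fga was at 11.62, 11.65, 11.53 and 11.64 in HFD replicates 1 to 4, at 11.51, 11.63, 11.53 and 11.48 in CANA replicates 1 to 4, and at 11.54, 11.54, 11.52, 11.37 and 11.70 in CR replicates 1 to 5. Fgb was at 13.08, 13.03, 12.91 and 13.05 in HFD, at 13.00, 13.15, 13.02 and 13.04 in CANA, and at 12.91, 13.06, 13.03, 12.83 and 13.06 in CR. Fgg was at 12.52, 12.43, 12.23 and 12.43 in HFD, at 12.50, 12.61, 12.49 and 12.47 in CANA, and at 12.36, 12.49, 12.50, 12.28 and 12.48 in CR. CR 4 and HFD 3 were the lowest arrays for Fgb and Fgg, and CANA 2 was the highest for both, and the groups overlapped for each chain.

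In CANA minus HFD, Fga differed by -0.07 (interval -0.26 to 0.11), Fgb by 0.04 (-0.15 to 0.22) and Fgg by 0.11 (-0.08 to 0.31). In CR minus HFD they differed by -0.07 (-0.25 to 0.10), -0.04 (-0.21 to 0.13) and 0.02 (-0.16 to 0.20). F13b, the carrier chain of the factor that cross-links fibrin, differed by 0.09 and -0.01. The smallest adjusted p among these 4 genes was 0.796.

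The fibrinogen promoters are shown because the genes are neighbours and textbook acute phase genes. They are the 250 bases before the start in GRCm38.p6: Fga at chr3:83025903-83026152, plus strand; Fgb at chr3:83049864-83050113, minus strand; Fgg at chr3:83007474-83007723, plus strand. Capitals mark a STAT and an HNF1 match in Fga, a STAT, an acute phase and an HNF1 match in Fgb, and a glucocorticoid receptor and an acute phase match in Fgg.
Fga: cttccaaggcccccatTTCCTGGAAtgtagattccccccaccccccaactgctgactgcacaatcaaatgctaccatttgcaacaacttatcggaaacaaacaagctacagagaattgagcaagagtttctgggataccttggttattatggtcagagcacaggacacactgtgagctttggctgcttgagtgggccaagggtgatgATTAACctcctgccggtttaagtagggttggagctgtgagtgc
Fgb: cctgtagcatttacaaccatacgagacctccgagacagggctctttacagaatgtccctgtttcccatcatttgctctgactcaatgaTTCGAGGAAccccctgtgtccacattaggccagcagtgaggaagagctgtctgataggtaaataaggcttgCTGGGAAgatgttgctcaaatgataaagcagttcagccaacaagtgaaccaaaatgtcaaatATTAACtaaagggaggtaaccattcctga
Fgg: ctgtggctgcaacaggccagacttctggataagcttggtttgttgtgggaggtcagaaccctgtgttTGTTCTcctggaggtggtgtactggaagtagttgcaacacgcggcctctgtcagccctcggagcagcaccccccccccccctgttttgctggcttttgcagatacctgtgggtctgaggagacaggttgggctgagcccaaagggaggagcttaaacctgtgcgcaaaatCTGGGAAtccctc

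Of the 33 genes, 24 had a promoter in the RefSeq table, searched on both strands from 250 bases before to 50 after the start. For the members 1 promoter per gene was searched. The share over all promoters takes every promoter of the table, without a choice of 1 per gene or of genes detected in liver. Shares of members and of all promoters thus rest on unlike sets. The HNF1 motif GTTAAT was in 8 of 24 (33.3%) and in 7.1% of all 32851 promoters. The C/EBP motif TTNNGNAAT was in 6 of 24 (25.0%, against 11.5%) and the STAT motif TTCNNNGAA in 6 of 24 (25.0%, against 8.3%). The acute phase motif CTGGGAA was in 5 of 24 (20.8%, against 11.1%), the glucocorticoid receptor motif TGTTCT in 9 of 24 (37.5%, against 19.0%) and the FoxO motif TGTTTAC in 1 of 24, F11 (4.17%, against 3.65%). Matches of different motifs may overlap, and 2 further matches, an acute phase one in C6 and a C/EBP one in Fgb, cross the start and are not shown in capitals. A match describes letters in the sequence and not a bound site.

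The genes differed widely among themselves in the spread between arrays of the same group. The SD within groups was 0.321 for C9, 0.290 for F11, 0.282 for C6 and 0.257 for C8b, and 0.0511 for F2, 0.0756 for Serpinc1 and 0.0783 for Proc. Over all tested genes the median was 0.172, and 0.153 over the 957 with a mean of at least 9, against 0.131 over the 33, of which 30 had such a mean. F2 had a lower SD than all but 0.120% of tested genes, while C9 was above 93.8% of them. CANA 2 was the highest of the 13 arrays for 11 of the 33 genes, among them F7, F10, F5, F13b and Plg. Its median deviation over the 33 was 0.12, against -0.07 to 0.06 in the other arrays. The same values over all tested genes are not given here, so neither can be read as particular to the 33.

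**Figure D4:**
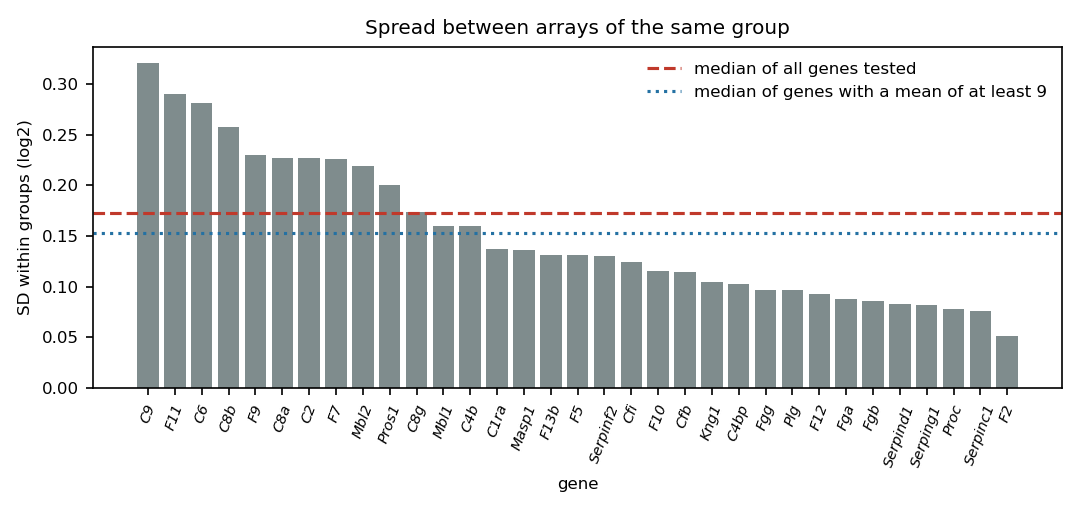
SD between arrays of the same group on the log2 scale (vertical axis) as a bar for each of the 33 genes (horizontal axis), pooled over the 3 groups. C9, F11 and C6 stand highest and F2 lowest, and lines mark the medians of all tested genes (0.172) and of genes with a mean of at least 9 (0.153).

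**Figure D5:**
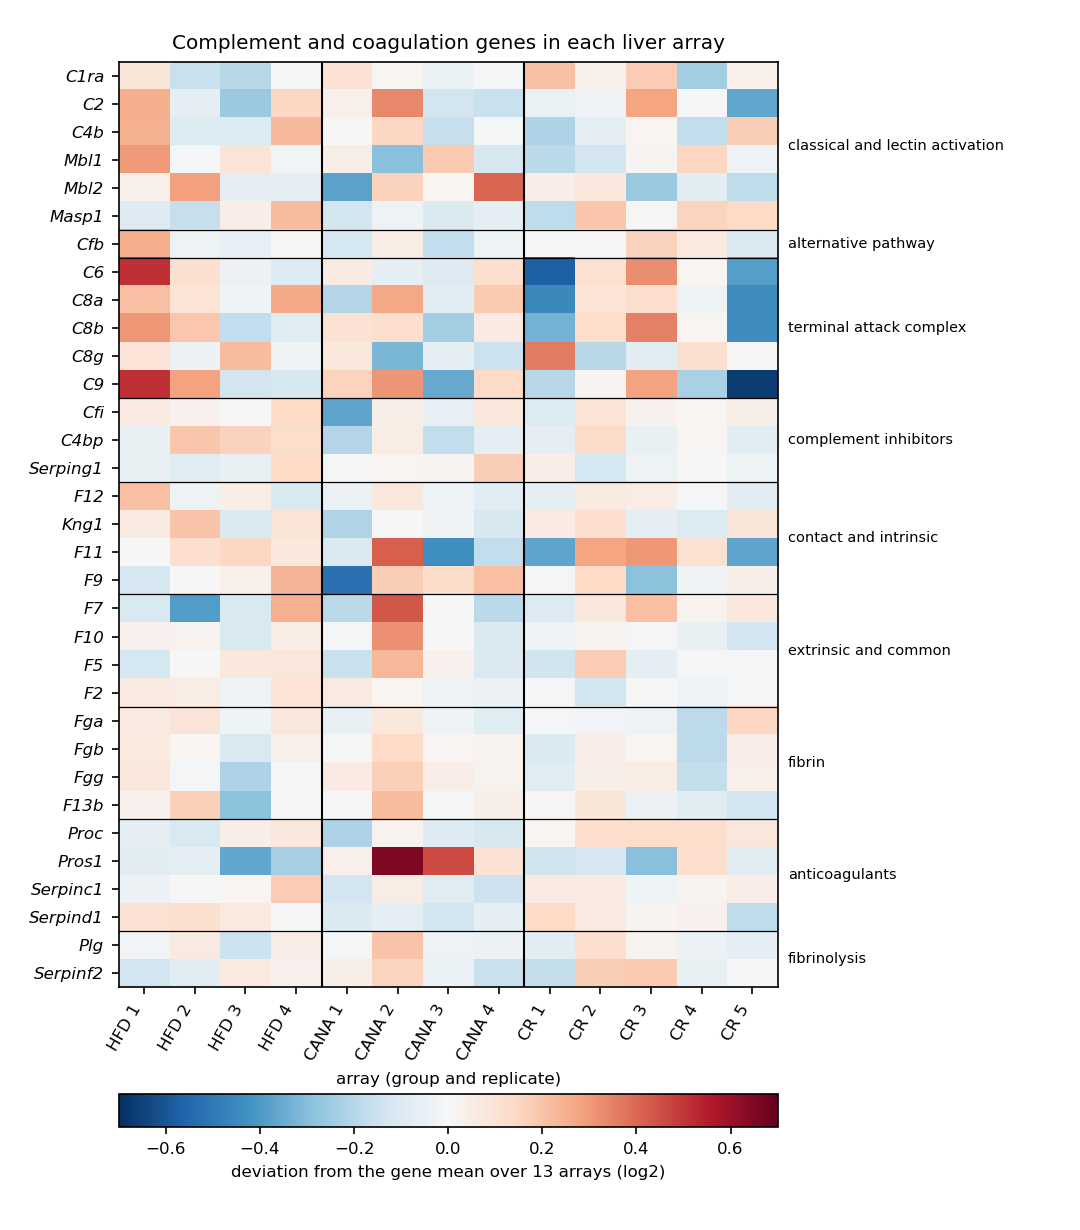
Deviation of each gene from its mean over 13 arrays in log2 units (colour), with genes in rows by role and arrays in columns by group and replicate. Pros1 is high in CANA 2 and CANA 3, and C6, C8a, C8b and F11 are low in CR 1 and CR 5.

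No other gene listed for these pathways passed either. Of 23 tested complement genes outside the 33, 0 passed in any of the 3 comparisons. C4a, the near-identical copy of C4b, had means of 7.95 ± 0.56 in HFD, 6.85 ± 0.99 in CANA (SD, n = 4 each) and 7.16 ± 0.35 in CR (n = 5). The difference was -1.10 in CANA minus HFD (SE 0.38, limma adjusted p = 0.365) and -0.79 in CR minus HFD (SE 0.36, adjusted p = 0.999). Colec11, a soluble lectin of the lectin pathway, was at 0.36 in CANA minus HFD (SE 0.16, adjusted p = 0.545), and Hc, the mouse gene of C5, at -0.20 in CR minus HFD (SE 0.10, adjusted p = 0.999). Of 10 further coagulation genes, 0 passed. Proz, protein Z, was at -0.15 in CANA minus HFD and -0.22 in CANA minus CR (adjusted p = 0.601), and F8, made by endothelial cells, at -0.15 and -0.22.

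The 6 genes listed for fibrinolysis and related proteases also had 0 calls. Tmprss6, a liver membrane protease that restrains hepcidin, had a mean of 9.80 ± 0.10 in HFD, of 9.53 ± 0.05 in CANA and of 9.75 ± 0.07 in CR. Its CANA arrays lay below all others, with -0.27 in CANA minus HFD (limma adjusted p = 0.284) and -0.23 in CANA minus CR (adjusted p = 0.443). Hgfac, a protease related to factor XII that activates hepatocyte growth factor, was at -0.32 in both (adjusted p = 0.452 and 0.476). Ggcx, the vitamin K-dependent carboxylase that F2, F7, F9, F10, Proc and Pros1 need, was at -0.20 in CANA minus HFD (adjusted p = 0.605) and -0.22 in CANA minus CR (adjusted p = 0.562). Of the 6 genes of that list, 0 passed.

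Regulators of these genes did not pass either, 0 of 14. Cebpb, a C/EBP factor of the acute phase, had a mean of 8.17 ± 0.14 in HFD, of 8.58 ± 0.11 in CANA and of 8.28 ± 0.15 in CR, with 0.41 in CANA minus HFD (limma adjusted p = 0.166) and 0.29 in CANA minus CR (adjusted p = 0.402). Cebpa, another C/EBP factor, went the other way, with -0.34 in CANA minus HFD (limma adjusted p = 0.536). All its CANA arrays lay below its HFD arrays. In CR minus HFD it was at -0.19 (limma adjusted p = 0.999). Foxa1 and Foxa2, pioneer factors of hepatocytes, were at -0.37 and -0.36 in CANA minus HFD (adjusted p = 0.393 and 0.472). Acute phase proteins had 0 of 14 calls. Hp, haptoglobin, was at 0.15 in CANA minus HFD (adjusted p = 0.747), Saa2, a serum amyloid A, at 1.00 in CANA minus CR (SE 0.42, adjusted p = 0.544) and Hamp, hepcidin, at -0.54 in CANA minus HFD (SE 0.26, adjusted p = 0.596). The SD of Hamp was 0.78 in CANA against 0.13 in HFD, and the arrays of these groups overlapped.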

How the data were processed

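Total RNA of liver, 250 ng per array, was labelled by the WT Plus protocol per the labels. The deposited log2 values were computed by the authors with RMA in Affymetrix Expression Console, per the submitters' processing notes, and versions and genome build are not given in the sources used here. Of 41345 probe sets, 23521 had 1 gene symbol in the platform annotation, 1814 several and 16010 none. Entrez identifiers updated the symbols for 23328, and per gene the probe set with the highest mean was taken.

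Genes with a mean under the 40th percentile (3.95) were left out. A single limma fit (version 3.58.1, R 4.3.3) over 13 arrays gave the comparisons, with 10 residual and 5.71 prior degrees of freedom, two-sided, and Benjamini-Hochberg adjustment over 13308 genes. Intervals are at 95% and unadjusted. The fit was tested on simulated data.

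The members and lists were chosen with earlier results of these data known. Members past an unadjusted p of 0.05 or without overlap are given by array. The terminal complement genes, the fibrinogen chains, F11 and F2 are too, chosen after their values were seen. Alternatives were other filters, probe set choices, blocks, thresholds and leaving out arrays. Of other lists, the genes named are among the 3 smallest p of their list in at least 1 comparison. They are a selection, and other genes of these ranks, such as Cd46, Plau and Orm2, are not described. Promoters are from RefSeq, GRCm38.p6.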

Additional observations from a re-analysis of the deposited data

Results flagged for a closer look

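In 99 sets of values, a gene in a group, 6 had an array far from the others of its group by Dixon's criterion, and chance flags about 1 in 20 sets. Serping1 was high in replicate 4 of HFD (12.16, the next at 11.97) and in replicate 4 of CANA (12.19, the next at 12.04). F9 was low in CANA replicate 1 (9.78, the next at 10.43). F10 was low in HFD replicate 3 (9.83, the next at 9.96), and F2 was low in CR replicate 2 (11.83, the next at 11.93). Plg was high in CANA replicate 2 (12.49, the next at 12.28). That array was the highest of 13 for 11 of the 33 genes, a count not given over all tested genes.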

How the results depend on the processing

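In each comparison, 0 of the 33 genes passed in any of 29 other settings. The smallest adjusted p of a member was 0.0925, for Pros1 in CANA against HFD without CANA replicate 1. Over the fits that each left out 1 array, the median difference of the members ran from -0.10 to -0.02 in CANA against HFD, -0.07 to -0.02 in CR against HFD and -0.03 to 0.03, across zero, in CANA against CR. The signs of 17, 14 and 15 of 33 members held in all 29 settings of the 3 comparisons. CANA minus HFD of Pros1, C4bp and Serpind1 and CANA minus CR of Pros1 and Proc kept their signs in all 29, while CR minus HFD of Pros1 turned to -0.11 within serial numbers 1 to 8.

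The counts of all called genes, which serve as background, moved more. In CANA against HFD, 22 became 12 without the dim filter, 39 with the 60th percentile, 40 with the serial number as a covariate, 46 with its set (1 to 8, 9 to 14) as a block, 2 within serial numbers 1 to 8, 0 within 9 to 14 (limma, 1290 genes at an unadjusted p under 0.05), 56 at an adjusted p of 0.10 and 3 to 38 without single arrays. In CANA against CR, 20 became 5 and 0 within the sets, 34 at 0.10 and 7 to 23 without single arrays. In CR against HFD, 0 became 1 with the replicate block, the serial number or its set, and stayed 0 without single arrays.

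Same-numbered arrays of different groups deviated together with r over 0.1 in 7 of 12 pairs (-0.15 to 0.30). Replicate numbers rise with the serial numbers, so pairing and serial order cannot be told apart here. Whether the numbers pair the samples is not settled, and the main fit did not use them. With the replicate block 29, 1 and 17 genes and 0 members were called. Signal over background was not analysed here beyond the dim filter.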
